A study of Mus musculus with 12 samples.

Results

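The 42 collagen chain genes measured on these arrays are the genes whose symbol has the form Col, a type number, the letter a and a chain number. They are 42 of the 18193 genes that could be named. Each gene is represented by 1 probe set, the one with the highest mean over the 12 arrays, chosen among 82 probe sets in all. The genes were sorted by the known structure of their products into 11 fibrillar collagens, 8 basement membrane collagens and 23 other collagens.

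The RNA came from mouse embryos at embryonic day 8.0. The line carries an EYFP reporter and either a wild-type or a mutant ER71 gene (now called Etv2), on a mixed C57BL/6 and FVB background shared by all groups. Cells were released with trypsin and sorted, and the 4 groups of 3 arrays are wild-type EYFP-positive, wild-type EYFP-negative, mutant EYFP-positive and mutant EYFP-negative cells (called positive and negative cells from here on). The RNA of every array went through repeated amplification. What drives EYFP, which part of ER71 is changed in the mutant, and whether replicates came from separate embryos or pools are not stated in the labels. P-values therefore measure the spread between these arrays, which may be technical.

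Collagens are secreted proteins of 3 chains wound into a triple helix. Fibrillar collagens assemble into the banded fibrils of connective tissue, and type IV chains form the sheet-like network of basement membranes, on which endothelium and epithelium rest. The remaining types coat fibrils, anchor membranes, form beaded filaments or span the cell membrane. In the embryo, mesenchyme is a main source of fibrillar chains, whereas endothelium lays down type IV and type XVIII collagen. ER71/Etv2 is a transcription factor of the ETS family, needed for the formation of blood and endothelial cells.

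All levels below are log2 values from RMA (a method that corrects, normalizes and summarises array signals), and all differences are log2 differences ± their standard error (SE) from limma, so a difference of 1 is a doubling. A gene counted as changed at an adjusted p under 0.05 (Benjamini-Hochberg over the 18193 genes). Levels of different genes are not compared, because probe sets differ in brightness. Array medians lay between 6.98 and 7.06. Etv2 read 10.70 to 11.36 in wild-type positive cells and 7.24 to 7.85 on the other 9 arrays. The 10 endothelial markers averaged 9.61 to 9.94 on the wild-type positive arrays and 6.67 to 6.97 on the mutant positive arrays. All 10 were lower in mutant positive than in wild-type positive cells (3.74% of all genes). Some arrays stood apart from the rest of their groups in genes other than collagens. Mutant positive array 1 had an average of 9.58 for the 8 yolk sac endoderm markers, where the other mutant positive arrays had 6.17 and 6.32. Both wild-type arrays numbered 1 read 11.23 and 10.81 for the Y-linked gene Eif2s3y, against at most 4.53 on the other 10 arrays. The 6 primitive erythroid markers averaged 8.05 on mutant negative array 2, where the other mutant negative arrays had 6.05 and 6.09. They averaged 6.20 on wild-type negative array 2, where the others of that group had 7.78 and 8.69.

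Upstream sequences are shown for 4 collagen genes that the results below turn on, because ER71 belongs to a family of factors that bind DNA around the letters GGAA. Col1a2 and Col3a1 encode fibrillar chains, Col6a1 a chain of the beaded filaments and Col18a1 a basement membrane chain. Each run is the 250 bases before the RefSeq start (GRCm38.p6), 5′ to 3′ on the gene's own strand, with every GGAA and its reverse complement TTCC in capitals. The windows are chr6:4505368-4505617 on the plus strand for Col1a2, chr1:45311288-45311537 on the plus strand for Col3a1, chr10:76726045-76726294 on the minus strand for Col6a1 and chr10:77166531-77166780 on the minus strand for Col18a1 (the outer of its 2 starts), and none overlaps an annotated gene.
Col1a2: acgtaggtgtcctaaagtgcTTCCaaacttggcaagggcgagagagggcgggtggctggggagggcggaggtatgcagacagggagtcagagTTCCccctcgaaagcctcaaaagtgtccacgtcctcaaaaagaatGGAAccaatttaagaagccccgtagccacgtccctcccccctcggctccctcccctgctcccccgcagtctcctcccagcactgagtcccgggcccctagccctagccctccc
Col3a1: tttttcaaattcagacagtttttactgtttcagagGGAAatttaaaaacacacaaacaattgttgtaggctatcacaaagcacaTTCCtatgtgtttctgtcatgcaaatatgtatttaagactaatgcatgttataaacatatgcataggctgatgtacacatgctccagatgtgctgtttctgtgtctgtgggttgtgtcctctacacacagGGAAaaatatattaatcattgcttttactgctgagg
Col6a1: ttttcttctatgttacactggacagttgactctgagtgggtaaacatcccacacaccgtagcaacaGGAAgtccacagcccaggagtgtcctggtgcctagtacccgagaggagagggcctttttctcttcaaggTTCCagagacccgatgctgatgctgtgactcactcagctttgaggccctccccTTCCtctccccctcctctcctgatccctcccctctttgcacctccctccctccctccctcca
Col18a1: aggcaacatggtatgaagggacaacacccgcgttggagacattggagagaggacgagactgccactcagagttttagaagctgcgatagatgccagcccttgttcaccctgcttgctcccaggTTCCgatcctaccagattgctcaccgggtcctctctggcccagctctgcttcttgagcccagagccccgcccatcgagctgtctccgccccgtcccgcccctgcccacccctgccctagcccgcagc
The Col1a2, Col3a1 and Col6a1 windows hold 3 matches each and the Col18a1 window 1. The window of the inner Col18a1 start (chr10:77113706-77113955, minus strand), which lies within the annotated gene and is not printed, holds 8, the most of any collagen window. RefSeq entries were given for 33 of the 42 collagens, with 36 windows, and all 36 hold GGAA on either strand. So do 93.45% of the 32851 promoter windows of that length in the table. The GC-rich motif GGGCGG was in 58.33% of the collagen windows and 32.74% of all windows, CCAAT in 36.11% and 33.85%, and TATAAA in 13.89% and 12.37%, each searched on both strands. These matches are letters only and say nothing of binding.

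In wild-type embryos, 6 collagens were higher and 1 was lower in positive than in negative cells, against 4.63% higher and 3.61% lower over all genes (8.24% either way). The 6 were 3 basement membrane chains (Col4a1, Col4a2, Col18a1), the fibrillar chain Col5a2, and Col14a1 and Col23a1 of the other types. Col2a1, the main cartilage chain, was lower. In mutant embryos, 10 collagens were higher and 0 lower in positive cells, against 3.07% and 2.29% over all genes (5.36% either way). These were the 5 fibrillar chains Col1a1, Col1a2, Col3a1, Col5a1 and Col5a2, with Col6a1, Col13a1, Col14a1, Col23a1 and Col26a1. No basement membrane chain passed the threshold there. Each array measured RNA pooled over sorted cells, so fewer cells of a type and less RNA per cell cannot be told apart.

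Between genotypes, 8 collagens were higher and 1 lower in mutant than in wild-type positive cells, against 4.23% and 3.74% over all genes (7.97% either way). In negative cells, 0 collagens and 0 genes in all (0.0%) passed the threshold between genotypes by limma, while 4 collagens and 949 genes (5.22%) had an unadjusted p under 0.05. The interaction, the mutant sort difference less the wild-type one, was past the threshold for 2 collagens, Col1a2 and Col2a1, both higher, against 0.973% higher and 1.61% lower over all genes (2.58% either way). It was past for 5 with a replicate block, which pairs positive and negative arrays of the same number within a genotype, against 4.38% of all genes. Without both wild-type arrays numbered 1 the interaction calls were Col3a1, Col5a1 and Col5a2 in place of these 2. There were 0 calls without any 1 of mutant negative arrays 2 and 3, wild-type negative array 2 or wild-type positive array 3. Over all genes 125 were higher without those 2 wild-type arrays and 82 to 126 in the runs with 0 collagens (177 in the main fit). Both sort comparisons, which share no arrays, called Col5a2, Col14a1 and Col23a1. These 3 are among the 7 collagens called in wild types and the 10 called in mutants. The same overlap was not counted over all genes, so it cannot be read as particular to collagens. The other comparisons share arrays with each other and are given side by side only. Fitted on the 6 positive arrays alone, the genotype comparison gave 2 higher (Col1a2, Col5a2) and Col14a1 lower. Over all genes that fit gave 385 higher and 459 lower (769 and 681 otherwise).

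Counted by arrays that do not overlap between groups, 8 collagens were higher and 6 lower in the wild-type sort, where 11.9% and 13.3% of all genes were (25.2% either way). In the mutant sort 15 were higher and 1 lower, against 8.48% and 11.0% of all genes (19.5%). Between positive cells 13 were higher and 5 lower in mutants, against 13.8% and 11.8% (25.7%), and between negative cells 1 was higher and 3 lower, against 7.2% and 4.01% (11.2%).

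**Figure D1:**
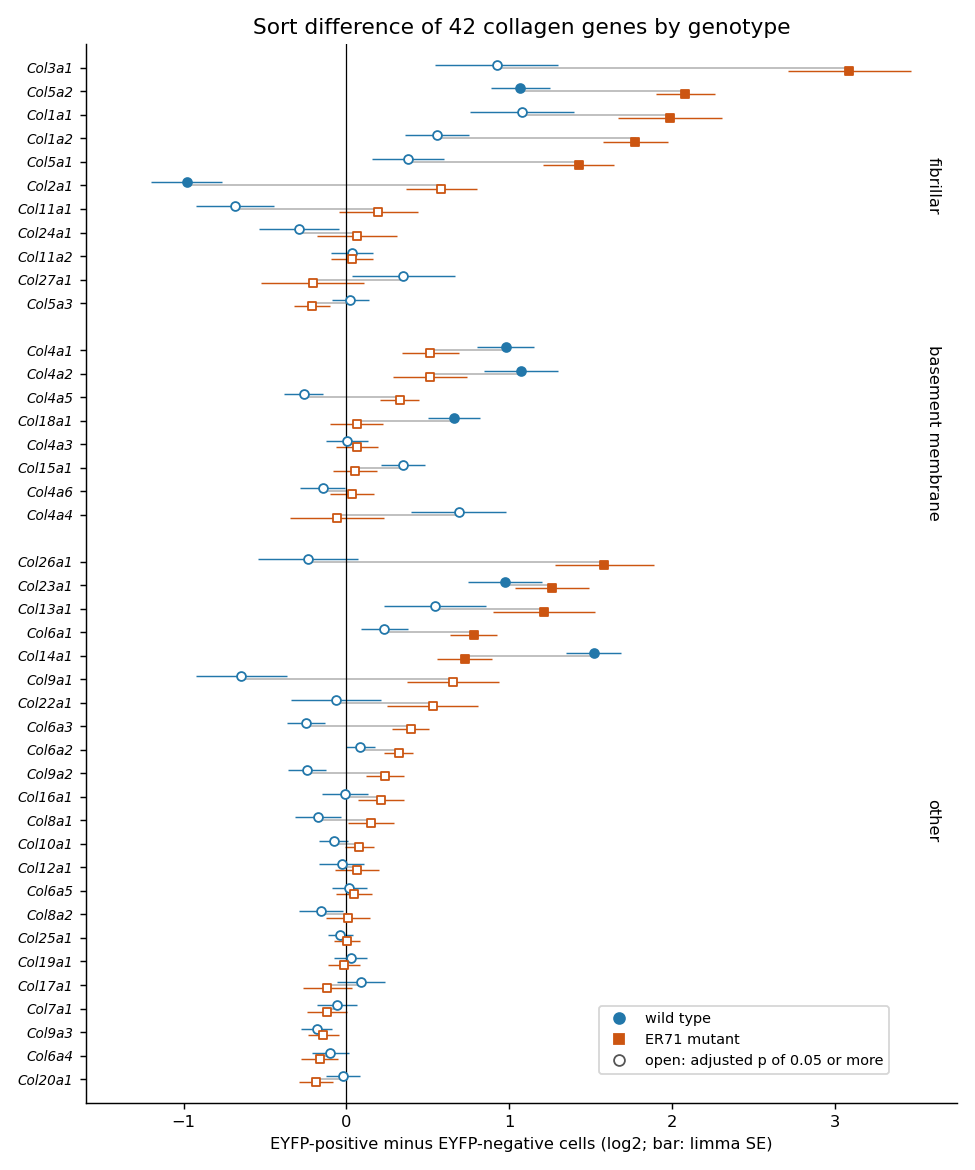
Log2 difference between EYFP-positive and EYFP-negative cells for each of the 42 collagen genes by class, in wild-type (blue circles) and mutant (orange squares) embryos; filled symbols passed the adjusted p of 0.05 and bars are SE. Filled mutant symbols include 5 fibrillar chains, up to 3.09 for Col3a1, and filled wild-type symbols include 3 basement membrane chains.

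The fibrillar chains had a median log2 difference between sorts of 0.35 in wild types and 0.58 in mutants, against -0.02 and -0.03 over all genes. Between positive cells their median was 0.78 (mutant minus wild type), against 0.01 over all genes. Between positive cells, 4 of 11 were higher in mutants (Col1a2, Col2a1, Col5a1, Col5a2) and 0 lower, against 4.23% and 3.74% of all genes.

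Col3a1 encodes the only chain of type III collagen, found with type I in extensible tissues and vessel walls. Its levels were 10.78, 10.45 and 11.73 on the wild-type negative arrays, 12.64, 11.54 and 11.56 on the wild-type positive, 10.54, 9.91 and 9.54 on the mutant negative and 13.10, 13.33 and 12.83 on the mutant positive arrays. All mutant positive arrays were above the other 9 arrays, whereas wild-type positive and negative arrays overlapped. The sort difference in mutants was 3.09 ± 0.38, an 8.49-fold difference and the largest of any collagen in these comparisons (adjusted p = 0.000806). In wild types it was 0.92 ± 0.38 (adjusted p = 0.2). Mutant positive cells read 1.17 ± 0.38 above wild-type positive cells (adjusted p = 0.084), which did not pass the threshold, although the arrays did not overlap. The interaction of 2.16 ± 0.53 missed it as well (adjusted p = 0.0616) and passed with a replicate block (adjusted p = 0.0449).

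Type I collagen, the most abundant protein of bone, skin and tendon, is built from chains of Col1a1 and Col1a2. Col1a2 read 10.44, 10.50 and 10.92 on the wild-type negative arrays, 11.42, 11.21 and 10.90 on the wild-type positive, 10.63, 10.35 and 10.69 on the mutant negative and 12.05, 12.24 and 12.70 on the mutant positive arrays. The mutant positive arrays were again above all others, and the wild-type positive and negative ranges overlapped slightly. Col1a2 was higher in positive cells by 1.77 ± 0.20 in mutants (3.42-fold, adjusted p = 0.000465) and by 0.56 ± 0.20 in wild types (adjusted p = 0.128). It was also higher in mutant than in wild-type positive cells, by 1.15 ± 0.20 (adjusted p = 0.00403). The interaction was 1.22 ± 0.28 (adjusted p = 0.044), a call close to the threshold that was lost under 14 of the alternatives run.

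Col1a1 read 7.86, 7.93 and 7.92 on the wild-type negative arrays, 9.62, 9.06 and 8.27 on the wild-type positive, 8.01, 8.25 and 7.40 on the mutant negative and 9.83, 10.29 and 9.50 on the mutant positive arrays. Every positive array was above every negative array, and the wild-type positive arrays spread widely, from 8.27 to 9.62. The sort difference was 1.99 ± 0.32 in mutants (3.97-fold, adjusted p = 0.00364). In wild types it was 1.08 ± 0.32 (adjusted p = 0.065), which passed with the replicate block (adjusted p = 0.0175). Col1a1 did not pass between positive cells, where wild-type array 1 lay within the mutant range (difference 0.89 ± 0.32, adjusted p = 0.123).

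Type V collagen, of Col5a1 and Col5a2 chains, sits inside type I fibrils and starts their assembly. Col5a2 read 9.87, 10.31 and 10.37 on the wild-type negative arrays, 11.44, 11.28 and 11.04 on the wild-type positive, 10.12, 10.06 and 9.66 on the mutant negative and 12.09, 12.23 and 11.77 on the mutant positive arrays. Its groups formed steps without overlap, with mutant positive above wild-type positive and both above the negative arrays. In the main fit on the probe sets used, it was the only fibrillar chain past the threshold in both sorts. Col1a1 also passed in both with the replicate block, as did the second probe set of Col3a1 when all probe sets were fitted. The second probe set of Col5a2 did not pass in wild types. On the probe set used, Col5a2 was higher in positive cells by 1.07 ± 0.18 in wild types (adjusted p = 0.00337) and 2.08 ± 0.18 in mutants (4.23-fold, adjusted p = 0.000111). Mutant positive cells exceeded wild-type positive cells by 0.78 ± 0.18 (adjusted p = 0.0231). The interaction was 1.01 ± 0.26 (adjusted p = 0.0703, or adjusted p = 0.048 with the block).

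Col5a1 read 9.54, 9.28 and 9.93 on the wild-type negative arrays, 10.49, 9.75 and 9.65 on the wild-type positive, 9.55, 9.32 and 9.32 on the mutant negative and 10.81, 10.68 and 10.98 on the mutant positive arrays. The mutant positive arrays were above all others, and wild-type positive and negative arrays overlapped. It was higher in mutant positive cells by 1.42 ± 0.22 against mutant negative (adjusted p = 0.00276) and by 0.86 ± 0.22 against wild-type positive cells (adjusted p = 0.0339). The wild-type sort difference was 0.38 ± 0.22 (adjusted p = 0.415).

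**Figure D2:**
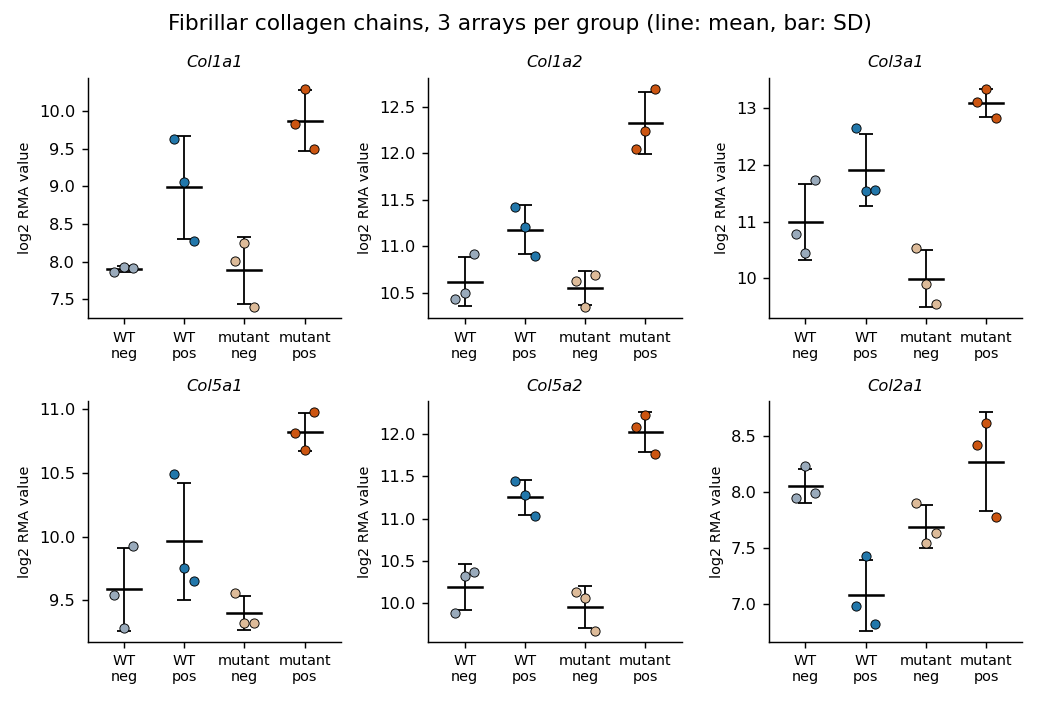
Log2 RMA levels of 6 fibrillar collagen genes on the 3 arrays of each group (points), with the group mean (line) and SD (bar); vertical axes differ between genes. Mutant positive arrays were the highest for Col1a2, Col3a1, Col5a1 and Col5a2, and wild-type positive arrays were the lowest for Col2a1.

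Col2a1, the chain of cartilage collagen that is also made by the notochord, ran the other way in wild types. Its levels were 7.94, 8.23 and 7.99 on the wild-type negative arrays, 6.98, 7.43 and 6.82 on the wild-type positive, 7.91, 7.54 and 7.63 on the mutant negative and 8.42, 8.62 and 7.78 on the mutant positive arrays. All wild-type positive arrays were below the other 9, and the mutant positive and negative arrays overlapped. The sort difference was -0.98 ± 0.22 in wild types (adjusted p = 0.0163) and 0.58 ± 0.22 in mutants (adjusted p = 0.195). The genotype difference in positive cells was 1.20 ± 0.22 (adjusted p = 0.00596) and the interaction 1.56 ± 0.31 (adjusted p = 0.0206). Averages of the 4 notochord markers measured, of 6 in the list, were 6.87 to 7.62 in wild-type positive and 6.73 to 7.55 in mutant positive arrays. They were at least 8.06 in negative arrays. Of the 4, Shh was lower in the wild-type sort (3.61% of all genes), and Shh and Foxa2 in the mutant sort (2.29%). The part of the notochord in the Col2a1 result was not tested.

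Col11a1, whose chain joins type II collagen in cartilage fibrils, read 8.08, 7.55 and 7.80 on the wild-type negative arrays, 7.54, 7.05 and 6.78 on the wild-type positive, 7.71, 7.56 and 7.47 on the mutant negative and 8.09, 7.99 and 7.25 on the mutant positive arrays. Wild-type positive arrays were narrowly below wild-type negative ones, with a difference of -0.68 ± 0.24 (adjusted p = 0.125, or adjusted p = 0.0284 with the block). The other 4 fibrillar chains (Col5a3, Col11a2, Col24a1, Col27a1) passed in no comparison, and Col24a1 read below the lower quartile of every array.

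Markers of lateral plate, allantois and mesenchyme were high in mutant positive cells, beside the called fibrillar chains. Their 8-gene average was 9.89 to 10.51 on mutant positive, 8.89 to 8.98 on wild-type positive, 8.59 to 8.64 on mutant negative and 8.89 to 9.10 on wild-type negative arrays. Of the 8, 7 were higher in mutant positive than in mutant negative cells (3.07% of all genes). Against wild-type positive cells 7 were higher as well (4.23% of all genes). All 6 cardiac markers were higher in both of these comparisons as well, averaging 11.69 to 12.00 on mutant positive arrays. In the wild-type sort 1 of the 8 mesenchyme markers was higher (Pitx1) and 2 were lower (Pdgfra, Prrx1), with a median of 0.004. There 0 of the 6 cardiac markers passed, with a median of -0.34. Of all genes 4.63% were higher and 3.61% lower in that sort. No gene of either list had a group mean below the lower quartile of the arrays. Other marker lists ran lower in the mutant sort. All 6 neural ectoderm markers were lower there (median -3.38), as were 3 of 5 neural crest, 2 of 7 somite and 2 of 4 notochord markers, beside 2.29% of all genes. Of 5 epithelial markers, Cdh1 (-3.88 ± 0.47) and Epcam (-3.21 ± 0.42) were lower and 1 (Krt8) was higher. The part of these cell types in the collagen levels was not tested. Without mutant positive array 1, 8 collagens were higher in the mutant sort, and without mutant negative array 2 also 8, with the 5 fibrillar chains among them each time. Over all genes 427 and 388 were higher in these runs (558 otherwise). Between positive cells, 5 were higher without mutant positive array 1 (Col1a2, Col2a1, Col6a1, Col6a2, Col6a3). The same 5 were higher without any 1 of mutant positive array 2 and wild-type positive arrays 2 and 3. Over all genes 446 to 612 were higher in these runs (769 otherwise).

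Basement membrane chains had a median sort difference of 0.50 in wild types and 0.06 in mutants, and a median of -0.39 between mutant and wild-type positive cells. In wild types 3 of 8 were higher in positive cells (4.63% of all genes), and 6 of 8 had an unadjusted p under 0.05 (18.9% of all genes). In mutants 0 of 8 passed (5.36% of all genes either way), and 3 of 8 had an unadjusted p under 0.05 (15.5% of all genes). Between positive cells 0 of 8 passed (7.97% of all genes either way), and 5 of 8 had an unadjusted p under 0.05 (22.3% of all genes).

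Type IV collagen of most basement membranes is made of Col4a1 and Col4a2 chains, and the 2 genes lie head to head with RefSeq starts 21 bases apart. Col4a1 read 12.18, 12.12 and 12.03 on the wild-type negative arrays, 13.19, 13.10 and 12.97 on the wild-type positive, 12.04, 11.55 and 12.33 on the mutant negative and 12.31, 12.45 and 12.70 on the mutant positive arrays. The wild-type positive arrays were above the other 9, and mutant positive and negative arrays overlapped. Col4a1 was higher in wild-type positive cells by 0.98 ± 0.18 (1.97-fold, adjusted p = 0.0047). In mutants the sort difference was 0.52 ± 0.18 (adjusted p = 0.146). Mutant positive cells differed from wild-type positive cells by -0.60 ± 0.18 (adjusted p = 0.0622), just outside the threshold.

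Col4a2 followed its partner in wild types, at 8.25, 8.46 and 8.34 on the wild-type negative arrays, 9.67, 9.08 and 9.51 on the wild-type positive, 8.90, 8.07 and 8.19 on the mutant negative and 9.23, 8.77 and 8.68 on the mutant positive arrays. Wild-type positive arrays were above wild-type negative ones, while the mutant positive range overlapped both the mutant negative and the wild-type positive range. Its sort difference was 1.07 ± 0.23 in wild types (adjusted p = 0.0124) and 0.51 ± 0.23 in mutants (adjusted p = 0.308). The interaction was -0.46 ± 0.25 for Col4a1 (adjusted p = 0.516) and -0.56 ± 0.32 for Col4a2 (adjusted p = 0.553), so a genotype dependence of their sort difference did not pass the test.

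Col18a1 encodes type XVIII collagen, the precursor of endostatin in vascular and epithelial basement membranes. It read 10.60, 10.95 and 11.01 on the wild-type negative arrays, 11.78, 11.40 and 11.38 on the wild-type positive, 11.22, 10.95 and 10.78 on the mutant negative and 11.20, 11.08 and 10.86 on the mutant positive arrays. The highest arrays were the wild-type positive ones, and mutant positive and negative arrays covered the same range. The sort difference was 0.66 ± 0.16 in wild types (adjusted p = 0.0278) and 0.06 ± 0.16 in mutants (adjusted p = 0.928), with an interaction of -0.60 ± 0.23 (adjusted p = 0.283).

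Col15a1, a close relative of Col18a1 in the membranes around vessels and muscle, read 6.62, 6.49 and 6.62 on the wild-type negative arrays, 6.81, 6.88 and 7.08 on the wild-type positive, 6.32, 6.87 and 6.50 on the mutant negative and 6.58, 6.62 and 6.65 on the mutant positive arrays. All wild-type positive arrays were above both wild-type negative and mutant positive ones, but the wild-type sort difference of 0.35 ± 0.13 did not pass (adjusted p = 0.167). The minor type IV chains Col4a3, Col4a4, Col4a5 and Col4a6 passed in no comparison. Col4a4 was high on wild-type positive array 1 alone, at 7.76 against 5.98 to 6.63 on the other 11 arrays.

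**Figure D3:**
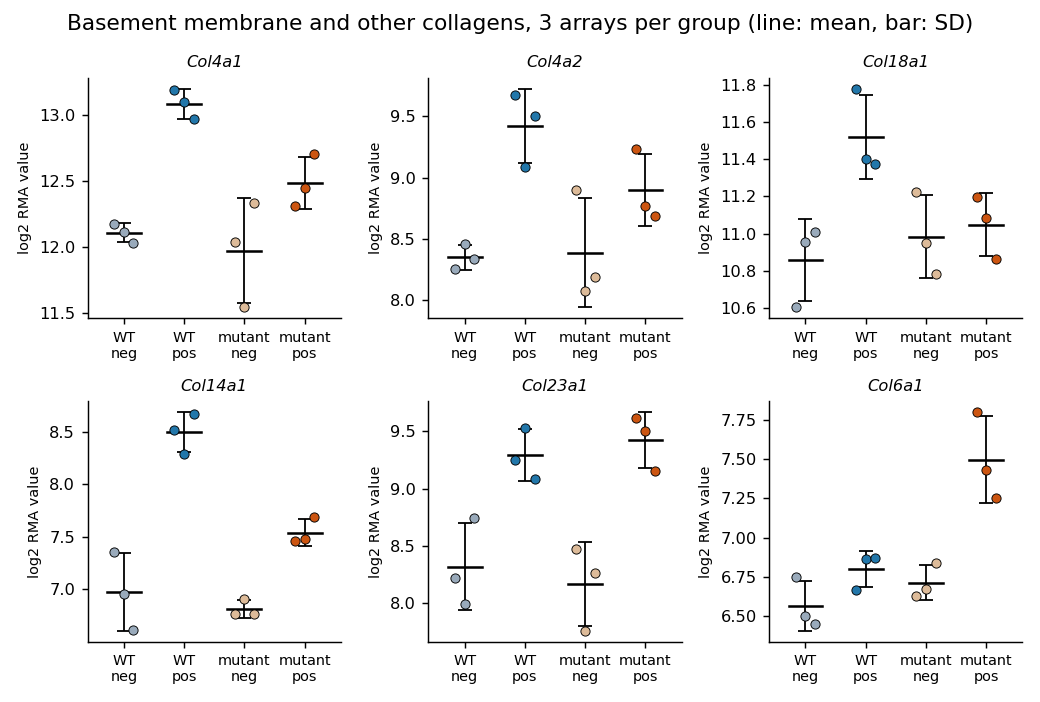
Log2 RMA levels of 3 basement membrane genes (Col4a1, Col4a2, Col18a1) and 3 other collagens (Col14a1, Col23a1, Col6a1) on the 3 arrays of each group, with mean (line) and SD (bar); vertical axes differ between genes. Wild-type positive arrays were the highest for Col4a1, Col18a1 and Col14a1, and mutant positive arrays for Col6a1.

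The endothelial markers moved beside the basement membrane chains in wild types, where all 10 were higher in positive cells (4.63% of all genes). So did the primitive erythroid markers, of which 5 of 6 were higher in the wild-type sort (median 4.95). Their averages were 11.43 to 12.11 in wild-type positive, 6.20 to 8.69 in wild-type negative and 5.95 to 6.07 in mutant positive cells. In mutant positive cells 6 of 6 were lower than in wild-type positive cells (median -5.64), beside 3.74% of all genes. Of the 10 endothelial markers, 3 had a mean below the lower quartile of the arrays in mutant positive cells (0 of 10 in wild-type positive cells) and 1 (Tek) was higher than in mutant negative cells. Of the 9 parietal endoderm markers (cells that also make type IV collagen in bulk), 3 were higher and 2 lower in wild-type positive cells (4.63% and 3.61% of all genes). Their averages were 8.63 to 8.71 there, 8.30 to 8.54 in wild-type negative and 8.71 to 8.87 in mutant positive cells. Other lists ran lower in the wild-type sort, with 4 of 6 neural ectoderm (median -2.45), 3 of 8 yolk sac endoderm and 3 of 7 somite markers lower. Of 5 neural crest markers 2 were lower and 1 higher, and of 4 notochord markers 1 was lower. Of 5 epithelial markers, Cdh1 and Epcam were lower and Sox17 was higher. The part of these cell types in the basement membrane chains was not tested. Without both wild-type arrays numbered 1, Col14a1 was the only collagen past the threshold in the wild-type sort. Over all genes 461 were higher and 299 lower then (843 and 656 otherwise). Leaving out only the negative array 1 gave 3 higher, as did leaving out only the positive array 1 (Col4a1, Col5a2 and Col14a1 each time). All genes higher in these runs numbered 611 and 656. Without wild-type negative array 2, 4 were higher (Col4a1, Col4a2, Col5a2 and Col14a1), beside 616 over all genes. The single lower call, Col2a1, was lost without any 1 of wild-type negative array 2, wild-type positive array 1 and wild-type positive array 3.

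Of the 23 other collagens, 7 passed in some comparison and 16 in none, where 14.3% of all genes passed in at least 1. Their median sort difference was -0.04 in wild types and 0.15 in mutants, beside all-gene medians of -0.02 and -0.03.

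Col14a1, a fibril-associated collagen that binds the surface of type I fibrils, gave the largest wild-type sort difference among the probe sets used. It read 7.35, 6.96 and 6.62 on the wild-type negative arrays, 8.52, 8.29 and 8.67 on the wild-type positive, 6.77, 6.91 and 6.77 on the mutant negative and 7.46, 7.48 and 7.69 on the mutant positive arrays. The wild-type positive group was the highest, mutant positive arrays lay between them and the negative arrays, and no positive array fell within a negative range. The difference between sorts was 1.52 ± 0.17 in wild types (2.86-fold, adjusted p = 0.000154) and 0.73 ± 0.17 in mutants (adjusted p = 0.028). It was the only collagen lower in mutant than in wild-type positive cells, by a difference of -0.95 ± 0.17 (adjusted p = 0.00507). The interaction was -0.79 ± 0.24 (adjusted p = 0.14).

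Col23a1, a transmembrane collagen, read 8.22, 7.99 and 8.74 on the wild-type negative arrays, 9.25, 9.53 and 9.08 on the wild-type positive, 8.47, 7.76 and 8.26 on the mutant negative and 9.62, 9.50 and 9.15 on the mutant positive arrays. All positive arrays of either genotype were above all negative arrays, and the positive groups overlapped. Its sort difference was 0.97 ± 0.23 in wild types (adjusted p = 0.0213) and 1.26 ± 0.23 in mutants (adjusted p = 0.0072). The difference between the genotypes in positive cells was 0.13 ± 0.23 (adjusted p = 0.792).

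Type VI collagen forms beaded filaments between fibrils and cells from chains of Col6a1, Col6a2 and Col6a3. Col6a1 read 6.75, 6.50 and 6.45 on the wild-type negative arrays, 6.67, 6.86 and 6.87 on the wild-type positive, 6.63, 6.68 and 6.84 on the mutant negative and 7.80, 7.43 and 7.25 on the mutant positive arrays. Col6a2 read 8.84 to 9.06 and Col6a3 7.81 to 8.18 on the mutant positive arrays, and at most 8.66 and 7.80 on the other 9. For each of the 3 chains the mutant positive arrays were thus above all others, for Col6a3 by less than 0.01. The genotype difference in positive cells was 0.69 ± 0.14 for Col6a1 (adjusted p = 0.0118), 0.45 ± 0.09 for Col6a2 (adjusted p = 0.01) and 0.57 ± 0.12 for Col6a3 (adjusted p = 0.0107). In the mutant sort Col6a1 was higher by 0.78 ± 0.14 (adjusted p = 0.00788), and Col6a2 (0.32 ± 0.09, adjusted p = 0.0655) and Col6a3 (0.39 ± 0.12, adjusted p = 0.0855) did not pass. The wild-type sort gave no call for the 3 chains. Col6a4 and Col6a5, whose chains resemble that of Col6a3, passed in no comparison.

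Col26a1, a short collagen first described in testis and ovary, read 7.66, 7.52 and 8.17 on the wild-type negative arrays, 7.78, 7.71 and 7.15 on the wild-type positive, 7.61, 7.09 and 6.62 on the mutant negative and 8.95, 9.02 and 8.10 on the mutant positive arrays. Mutant positive arrays were above both groups they were compared with, though 1 wild-type negative array (8.17) lay within their range. It was higher by 1.58 ± 0.31 against mutant negative (adjusted p = 0.0106) and by 1.14 ± 0.31 against wild-type positive cells (adjusted p = 0.0424). Its interaction of 1.82 ± 0.43 had adjusted p = 0.052, or adjusted p = 0.0211 with the block. Col13a1, a transmembrane collagen at cell junctions, read 8.39, 9.39 and 9.29 on the wild-type negative arrays, 9.55, 9.11 and 10.04 on the wild-type positive, 8.69, 8.71 and 8.73 on the mutant negative and 9.98, 10.41 and 9.39 on the mutant positive arrays. The mutant negative arrays were tightly grouped below all mutant positive ones, while the 2 wild-type groups overlapped. It was higher in mutant positive than mutant negative cells by 1.21 ± 0.31, near the threshold (adjusted p = 0.047).

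Col9a1, a fibril-associated chain on type II fibrils, read 10.59, 10.45 and 10.98 on the wild-type negative arrays, 10.34, 10.30 and 9.44 on the wild-type positive, 10.21, 10.37 and 10.24 on the mutant negative and 10.85, 11.49 and 10.45 on the mutant positive arrays. Wild-type positive arrays were below every other group except for an overlap with the mutant negative arrays, and mutant positive arrays were above the wild-type positive ones. Its genotype difference in positive cells was 0.90 ± 0.28 (adjusted p = 0.0766), and at 0.90 its group means spanned more than those of any other gene that passed nowhere. The other 15 that passed in no comparison were the fibril-associated Col9a2, Col9a3, Col12a1, Col16a1, Col19a1, Col20a1 and Col22a1, the network-forming Col8a1, Col8a2 and Col10a1, the anchoring Col7a1, the transmembrane Col17a1 and Col25a1, and Col6a4 and Col6a5. Over all classes, 16 of the 42 collagens passed in at least 1 of the 5 comparisons, where 14.3% of all genes did. The group means of 21 of the 26 that passed nowhere spanned under 0.5. Col6a5, Col8a2, Col10a1, Col17a1 and Col24a1 were below the lower quartile of all 12 arrays.

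In negative cells no genotype difference of a collagen passed the threshold (0.0% of all genes did). The class medians were -0.13, 0.01 and -0.02 for fibrillar, basement membrane and other collagens. The largest was that of Col3a1, -0.99 ± 0.38 (adjusted p = 0.929).

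More than 1 probe set was present for 27 collagens. All of them were fitted together for the values that follow. For Col3a1 the second probe set gave 2.57 ± 0.34 (adjusted p = 0.00224) in the mutant sort and 1.58 ± 0.34 (adjusted p = 0.0193) in the wild-type sort, the latter past the threshold there. Between positive cells it gave 0.71 ± 0.34 (adjusted p = 0.289), and its interaction was 0.99 ± 0.48 (adjusted p = 0.513). The probe set used gave 1.17 and 2.16 for these. For Col1a2 the second probe set gave 1.65 ± 0.30 (adjusted p = 0.0106) in the mutant sort and the third, dim one (mean 5.55) 0.93 ± 0.32 (adjusted p = 0.193). Between positive cells they gave 1.05 ± 0.30 (adjusted p = 0.0666) and 0.91 ± 0.32 (adjusted p = 0.139), which did not pass. Their interactions of 1.08 ± 0.42 (adjusted p = 0.339) and 0.76 ± 0.46 (adjusted p = 0.637) did not pass either. The second probe set of Col4a1 gave 0.85 ± 0.24 (adjusted p = 0.0647) in the wild-type sort. The second probe set of Col5a2 gave 0.63 ± 0.25 (adjusted p = 0.212) in wild types, which did not pass, and 1.72 ± 0.25 (adjusted p = 0.00322) in mutants. Between positive cells it gave 0.30 ± 0.25 (adjusted p = 0.569), which did not pass either.

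Col5a1 had 3 probe sets, which differed in the size of the mutant and genotype differences. Between positive cells the second gave 1.39 ± 0.15 (adjusted p = 0.000262) and the third 0.37 ± 0.10 (adjusted p = 0.0483). In the mutant sort they gave 1.04 ± 0.15 (adjusted p = 0.00337) and 0.22 ± 0.10 (adjusted p = 0.376), and in the wild-type sort -0.31 ± 0.15 (adjusted p = 0.344) and -0.23 ± 0.10 (adjusted p = 0.265), opposite in sign to the one used. Their interactions were 1.36 ± 0.21 (adjusted p = 0.00732) and 0.44 ± 0.14 (adjusted p = 0.194). The second probe set of Col6a2 gave 0.25 ± 0.13 (adjusted p = 0.312) between positive cells, which did not pass, and -0.04 ± 0.13 (adjusted p = 0.966) in the mutant sort. The second one of Col26a1 was dim, with a mean of 5.55, and gave 0.54 ± 0.23 (adjusted p = 0.211) between positive cells and 0.46 ± 0.23 (adjusted p = 0.437) in the mutant sort. The second one of Col1a1 was dim, with a mean of 5.36, and gave 0.34 ± 0.10 (adjusted p = 0.132) in the mutant sort. The other probe sets of Col14a1 were dim, with means of 5.23 and 5.31, and passed in no comparison. They gave 0.54 ± 0.18 (adjusted p = 0.141) and 0.06 ± 0.16 (adjusted p = 0.92) in the wild-type sort. Between positive cells they gave -0.25 ± 0.18 (adjusted p = 0.525) and -0.005 ± 0.16 (adjusted p = 0.993). Averaging all probe sets of a gene lowered some differences by more than 1.5 times, to 1.16 for Col1a1, 0.89 for Col5a1, 1.02 for Col26a1 and 0.29 for Col14a1 in the mutant sort (where Col14a1 then did not pass), and to 0.71 for Col14a1 in the wild-type sort and -0.40 between positive cells. It also took Col5a2 between positive cells to 0.54, past the threshold no longer (adjusted p = 0.108).

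Genes that make, export, bind or degrade collagen were described from 5 lists, with 65 of 71 genes measured. Their counts below stand beside the shares of all genes, which were 4.63% higher and 3.61% lower in the wild-type sort, 3.07% and 2.29% in the mutant sort, and 4.23% and 3.74% between positive cells. With the replicate block, 11.9% of all genes passed either way in the wild-type sort and 8.17% in the mutant sort. Of 17 folding and modification genes, 0 changed in the wild-type sort, 4 were higher in the mutant sort and 2 were higher in mutant than in wild-type positive cells (median differences 0.12, 0.45 and 0.37). With the replicate block 7 of 17 were higher in the mutant sort (8.17% of all genes either way). Serpinh1, the collagen chaperone Hsp47, read 12.10, 12.33 and 12.80 on the wild-type negative arrays, 12.78, 12.47 and 12.90 on the wild-type positive, 12.38, 11.85 and 12.09 on the mutant negative and 12.96, 13.06 and 12.96 on the mutant positive arrays. Every mutant positive array was above all other arrays, and the wild-type groups overlapped. Its sort difference was 0.89 ± 0.19 in mutants (adjusted p = 0.0174) and 0.30 ± 0.19 in wild types (adjusted p = 0.456). P3h2, a prolyl 3-hydroxylase of basement membrane collagen, read 8.77, 8.95 and 9.30 on the wild-type negative arrays, 8.75, 8.56 and 8.68 on the wild-type positive, 9.28, 8.67 and 9.26 on the mutant negative and 9.99, 9.68 and 10.00 on the mutant positive arrays. It was higher in mutant than in wild-type positive cells by 1.23 ± 0.18 (adjusted p = 0.0016), higher in the mutant sort by 0.82 ± 0.18 (adjusted p = 0.0221), and its interaction was 1.17 ± 0.26 (adjusted p = 0.0374). Its mutant positive arrays were above all others, while Col4a1 and Col4a2 were not. P3h1 and P3h4, which act on type I collagen, were higher in the mutant sort by 0.89 ± 0.22 and 0.90 ± 0.17. P4ha2, a prolyl 4-hydroxylase subunit, was higher between positive cells by 1.24 ± 0.34 (adjusted p = 0.0454).

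Among 15 export, processing and cross-linking genes, 2 were higher in the wild-type sort and 4 in the mutant sort (6 with the replicate block, beside 8.17% of all genes), and between positive cells 2 were higher in mutants and 1 lower. The medians were 0.37, 0.37 and 0.04. Pcolce, which speeds removal of the procollagen C-propeptide, read 7.48, 7.87 and 8.16 on the wild-type negative arrays, 8.14, 8.99 and 8.30 on the wild-type positive, 7.40, 7.17 and 7.97 on the mutant negative and 9.59, 9.37 and 10.59 on the mutant positive arrays. Its mutant positive arrays were above all others. The mutant sort difference was 2.33 ± 0.34 (5.04-fold, adjusted p = 0.00192) and the genotype difference in positive cells 1.37 ± 0.34 (adjusted p = 0.0283). Loxl1, a cross-linking oxidase, was higher in the same comparisons by 0.89 ± 0.21 and 0.84 ± 0.21. Creb3l1, an activator of type I collagen transcription, was higher in the mutant sort by 0.65 ± 0.12 (adjusted p = 0.00841). Sparc, a collagen-binding glycoprotein abundant in basement membranes, was higher in both sorts, by 1.46 ± 0.19 in wild types and 1.24 ± 0.19 in mutants. Tll1, a C-proteinase of the Bmp1 family, was higher in the wild-type sort by 0.95 ± 0.24 (adjusted p = 0.034) and differed by -0.97 ± 0.24 between mutant and wild-type positive cells (adjusted p = 0.0328), with all 12 arrays under 6.

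**Figure D4:**
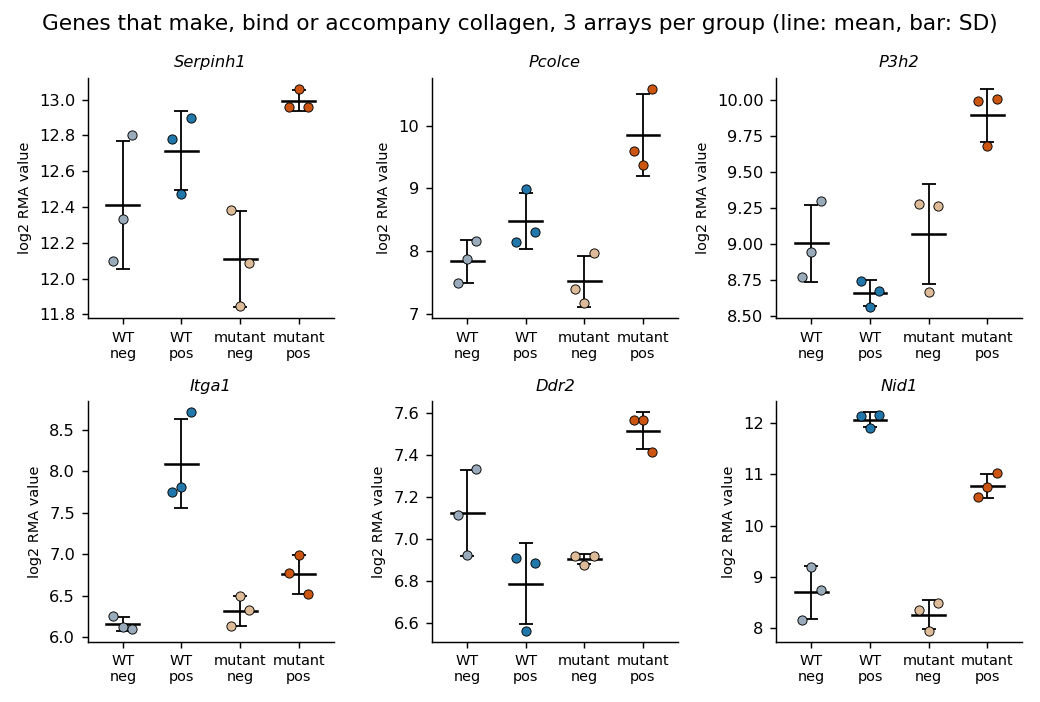
Log2 RMA levels of 6 genes that act on or bind collagens (Serpinh1, Pcolce, P3h2, Itga1, Ddr2, Nid1) on the 3 arrays of each group, with mean (line) and SD (bar); vertical axes differ between genes. Mutant positive arrays were the highest for Serpinh1, Pcolce, P3h2 and Ddr2, and wild-type positive arrays for Itga1 and Nid1.

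The 9 collagen receptor genes gave 2 higher in each sort (4.63% of all genes in wild types and 3.07% in mutants), and 1 higher and 1 lower between positive cells (4.23% and 3.74%; medians -0.14 in the wild-type and -0.07 in the mutant sort). Itga1, the integrin subunit that prefers type IV collagen, read 6.25, 6.13 and 6.10 on the wild-type negative arrays, 7.74, 7.81 and 8.71 on the wild-type positive, 6.13, 6.50 and 6.32 on the mutant negative and 6.77, 6.99 and 6.52 on the mutant positive arrays. Wild-type positive arrays were above all others. It was higher in the wild-type sort by 1.93 ± 0.23 (adjusted p = 0.000233), differed by -1.33 ± 0.23 between mutant and wild-type positive cells (adjusted p = 0.00381), and had an interaction of -1.49 ± 0.32 (adjusted p = 0.033). Ddr2, a receptor kinase for fibrillar collagens, read 7.11, 6.92 and 7.33 on the wild-type negative arrays, 6.91, 6.56 and 6.89 on the wild-type positive, 6.92, 6.88 and 6.92 on the mutant negative and 7.57, 7.56 and 7.41 on the mutant positive arrays. Its mutant positive arrays were above all others, by 0.73 ± 0.13 against wild-type positive cells (adjusted p = 0.00424), with an interaction of 0.95 ± 0.18 (adjusted p = 0.0155). Itgb1, the common beta subunit, was higher in both sorts, by 0.66 ± 0.16 in wild types and 1.01 ± 0.16 in mutants.

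Of 10 degradation genes, 3 were higher and 1 lower in the wild-type sort (5 and 1 with the replicate block, beside 11.9% of all genes), 2 higher in the mutant sort, and 1 higher and 2 lower in mutant than in wild-type positive cells (medians 0.31, 0.25 and 0.03). Mmp9, which cleaves type IV collagen, was higher in the wild-type sort by 1.83 ± 0.31 (adjusted p = 0.00303). Timp3, a matrix-bound inhibitor of these proteases, was higher there by 1.24 ± 0.22 (adjusted p = 0.00419) and differed by -1.03 ± 0.22 between mutant and wild-type positive cells (adjusted p = 0.0142). Mmp14, a membrane-bound collagenase, was higher in both sorts, by 0.70 ± 0.13 and 1.22 ± 0.13. Mmp2, a gelatinase, was higher in the mutant sort by 0.83 ± 0.20. Mmp16 was the gene lower in the wild-type sort (-1.73 ± 0.48, adjusted p = 0.0474).

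Of 14 collagen-binding matrix genes, 4 were higher in the wild-type sort and 6 in the mutant sort (11 with the replicate block, beside 8.17% of all genes), with medians of 0.53 and 0.79. Nid1, which links laminin to type IV collagen, read 8.16, 9.20 and 8.75 on the wild-type negative arrays, 12.14, 11.90 and 12.16 on the wild-type positive, 8.36, 7.96 and 8.50 on the mutant negative and 10.55, 10.75 and 11.02 on the mutant positive arrays. Both positive groups were above all negative arrays, the wild-type one highest. Nid1 was higher by 3.36 ± 0.24 in the wild-type sort (10.3-fold, adjusted p = 4.22e-06) and 2.50 ± 0.24 in the mutant sort (adjusted p = 0.000191), and differed by -1.29 ± 0.24 between mutant and wild-type positive cells (adjusted p = 0.00613). Tgfbi, which binds fibrillar collagens, was higher in the mutant sort by 2.59 ± 0.27 (adjusted p = 0.000352) and between positive cells by 1.80 ± 0.27 (adjusted p = 0.00188), with an interaction of 2.43 ± 0.39 (adjusted p = 0.00535). Bgn, a small proteoglycan on fibrils, was higher in the wild-type sort by 1.65 ± 0.25 (adjusted p = 0.00149). Fn1 and Lamb1, the fibronectin and laminin beta chains, were higher in both sorts, Fn1 by 0.88 ± 0.19 and 1.11 ± 0.19 and Lamb1 by 0.63 ± 0.11 and 0.61 ± 0.11. Sparc, Lamb1 and Lama1 are also in the parietal endoderm marker list. No gene of the 5 lists passed between genotypes in negative cells.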

How the data were processed

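Gene expression was measured on 12 one-colour oligonucleotide arrays, 4 groups of 3. The deposited values are log2 expression values that the authors made with RMA, per the submitters' processing notes. Its version was not given in the sources used here. Of 45101 probe sets, 64 were controls, 34945 carried 1 gene symbol in the platform table, 932 several and 9160 none listed. The RefSeq gene table (GRCm38.p6) held the genes of 34741 and changed 0 symbols. Differences were fitted with limma 3.58.1 in R 4.3.3 (two-sided; 1 model of 4 group means, 8 residual degrees of freedom), with no filter on dim genes. The fit was tested on simulated data.

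Within a genotype, the deviations of same-numbered positive and negative arrays from their group means correlated at 0.19, 0.10 and 0.20 (wild type) and 0.55, 0.40 and 0.41 (mutant). The numbers were therefore taken to pair those arrays in the replicate block within genotype. The main fit, which gave the p-values not marked as from the block, took no pairing. The pairing comes from the data; the labels do not state it. The collagens, classes, gene lists and naming rule were chosen with earlier results of these data known. All collagens are accounted for. Values on all 12 arrays are given for a fixed set and for those past the threshold with a log2 difference of at least 1, and from each list up to 4 genes per comparison by smallest p. The number of arrays limits the precision. Alternatives changed how probe sets were combined, the normalization, model, block, filter on dim genes and arrays used.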

Additional observations from a re-analysis of the deposited data

Results flagged for a closer look

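The sort difference differed between genotypes (limma, adjusted p under 0.05) for 2 collagens and 4 genes that act with collagens. For Col1a2 it was larger in mutants by 1.22 on the log2 scale, and all 3 mutant positive arrays were the highest of the 12. For Col2a1 it was larger by 1.56, and all 3 wild-type positive arrays were the lowest. The fibrillar collagen receptor Ddr2 (0.95), the prolyl 3-hydroxylase P3h2 (1.17) and the collagen-binding Tgfbi (2.43) differed the same way, and the integrin subunit Itga1 (-1.49) differed the other way. The calls for Ddr2 and Tgfbi held under every alternative run, at adjusted p up to 0.0467 and 0.019. Those for Col1a2, Col2a1, Itga1 and P3h2 were lost under 14, 6, 8 and 10 of them. No probe set of Col1a2 passed for the interaction when all probe sets were fitted together. Groups of 3 arrays were too small to screen for outlying values.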

How the results depend on the processing

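Of 28 collagen calls, 10 held under every alternative run, 18 were lost under at least 1, and 0 changed sign. The 10 were Col14a1 in the wild-type sort, Col14a1 and Col1a2 between positive cells, and Col1a1, Col1a2, Col3a1, Col5a1, Col5a2, Col6a1 and Col23a1 in the mutant sort. No alternative put another probe set in place of the one used. For Col1a1, Col1a2, Col5a1 and Col14a1, at least 1 other probe set did not pass where the one used did. Between positive cells no other probe set of Col1a2 passed. Without both wild-type arrays numbered 1 the wild-type sort gave 1 higher (6 otherwise) and 0 lower (1 otherwise). Over all genes that run gave 461 higher and 299 lower (843 and 656 otherwise). Either replicate block (shared by all groups, or within genotype) gave 2 lower there, and the block within genotype gave 5 higher for the interaction (2 otherwise); it changed no collagen call in the mutant sort. On the groups of the contrast alone, 2 collagens were higher between positive cells (8 otherwise). The same fit called 385 genes higher in all (769 otherwise). Quantile normalization gave 2 lower between positive cells (1 otherwise), as did testing only genes at or above the median level. The latter gave 4 higher for the interaction. Fitting every probe set left 1 of the probe sets used past the threshold for the interaction (Col2a1). Another probe set of Col5a1 passed as well in that fit (adjusted p = 0.00732). Leaving out each array in turn gave 3 to 7 higher and 0 to 1 lower in the wild-type sort, 5 to 10 higher and 1 to 2 lower between positive cells, and 0 to 4 higher and 0 to 1 lower for the interaction. Over all genes these runs gave 611 to 843 higher in the wild-type sort, 446 to 854 between positive cells and 82 to 196 for the interaction. The main fit gave 843, 769 and 177. Of 46 calls in the other gene lists, 24 were lost under at least 1 alternative. Among those lost with the mean of all probe sets were Timp3 in the wild-type sort and between positive cells, and Fn1 and Itgb1 in the wild-type sort. The calls for P4ha2 between positive cells and Mmp16 in the wild-type sort were lost under 12 and 11 alternatives. With the mean of all probe sets Hspg2 turned from -0.08 to 0.56 in the wild-type sort. The causes were not tested.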

Other observations

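Several collagen genes are neighbours on the chromosome, with no other protein-coding gene of the RefSeq table between them, in 7 pairs. In the Col3a1 and Col5a2 pair and in the Col6a2 and Col6a1 pair all genes read highest on the 3 mutant positive arrays. In the Col4a1 and Col4a2 pair both were higher in the wild-type sort. Neither gene of the pairs Col4a4 and Col4a3, Col6a5 and Col6a4, Col4a6 and Col4a5, or Col9a1 and Col19a1 passed in any comparison.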
